A study of Mus musculus with 6 samples.

Results

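The acute phase genes described here are 10 genes: the serum amyloid A genes Saa1, Saa2, Saa3 and Saa4, the orosomucoid genes Orm1 and Orm2, and Lcn2 (lipocalin 2), Hp (haptoglobin), Cp (ceruloplasmin) and Hamp (hepcidin). They were taken by name, with every probe that the array annotates to them through a RefSeq transcript, which gave 11 probes (2 for Cp and 1 for each of the others) out of 55681 distinct probes, and 10 of the 16440 genes that entered the tests. The RNA came from lung cells of mice that had been dissociated and depleted of cells bearing the leukocyte antigen CD45, so that epithelial, endothelial and mesenchymal cells are enriched. Mice carrying the targeted allele Ccr2tm1Ifc (strain B6.129S4-Ccr2tm1Ifc/J, called Ccr2KO), which lack the monocyte chemokine receptor CCR2, were compared with WT mice (C57BL/6J), 7 to 9 weeks old at the start. Each genotype was sampled 28 days after aspiration of silica, 40 days after it, and untreated (day 0). The untreated mice received neither silica nor, as far as the labels say, a sham aspiration. Each of these 6 groups is 1 RNA pooled from 3 mice and 1 one-colour array, so the differences between mice of a group were not measured.

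Acute phase proteins are plasma and secretory proteins whose synthesis changes in inflammation. The classical site is the hepatocyte, in which interleukin 6 acts through STAT3 and interleukin 1 and tumour necrosis factor act through NF-kB, with C/EBP factors binding the same promoters, but several of these genes are also transcribed in epithelium, fibroblasts, adipocytes and myeloid cells. Saa1 and Saa2 encode apolipoproteins of high density lipoprotein, Saa3 the form made mainly outside the liver in mice, and Saa4 a form named constitutive in plasma. Orosomucoids and lipocalin 2 are small carrier proteins of the lipocalin fold, lipocalin 2 being the one that captures bacterial siderophores. Haptoglobin binds free haemoglobin, ceruloplasmin is a copper ferroxidase, and hepcidin is the peptide that closes the iron exporter ferroportin.

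The 4 Saa genes lie together on chromosome 7, in the order Saa3, Saa4, Saa1, Saa2, and Hamp lies on the same chromosome. Orm1 and Orm2 lie on chromosome 4, Lcn2 on chromosome 2, Cp on chromosome 3 and Hp on chromosome 8. The 250 bases before the annotated start were available for 8 of the 10 genes from RefSeq (build GRCm38.p6), and 6 are printed here to show each kind of gene (serum amyloid, orosomucoid, lipocalin and hepcidin). They are Saa1 (chr7:46742981-46743230, minus strand), Saa2 (chr7:46751583-46751832, plus strand), Saa3 (chr7:46715677-46715926, minus strand), Orm2 (chr4:63362199-63362448, plus strand), Lcn2 (chr2:32387740-32387989, minus strand) and Hamp (chr7:30944030-30944279, minus strand). Each runs 5′ to 3′ in the direction of its gene, and capitals mark matches to TTNNGNAA (a C/EBP motif), GGG and CC with 5 bases of any kind between them (an NF-kB motif), TTCNNNGAA (a STAT motif), all 3 searched on both strands, and TATAAA (the core promoter box, given strand only).
Saa1: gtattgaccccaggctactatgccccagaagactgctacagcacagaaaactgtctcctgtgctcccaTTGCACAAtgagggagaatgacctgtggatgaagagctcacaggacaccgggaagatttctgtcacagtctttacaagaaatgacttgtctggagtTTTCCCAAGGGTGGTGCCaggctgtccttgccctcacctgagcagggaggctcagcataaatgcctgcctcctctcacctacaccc
Saa2: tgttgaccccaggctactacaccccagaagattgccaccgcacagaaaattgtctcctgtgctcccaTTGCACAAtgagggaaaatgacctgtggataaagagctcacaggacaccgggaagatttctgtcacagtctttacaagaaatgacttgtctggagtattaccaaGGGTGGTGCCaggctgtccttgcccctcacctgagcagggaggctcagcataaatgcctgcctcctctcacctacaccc
Saa3: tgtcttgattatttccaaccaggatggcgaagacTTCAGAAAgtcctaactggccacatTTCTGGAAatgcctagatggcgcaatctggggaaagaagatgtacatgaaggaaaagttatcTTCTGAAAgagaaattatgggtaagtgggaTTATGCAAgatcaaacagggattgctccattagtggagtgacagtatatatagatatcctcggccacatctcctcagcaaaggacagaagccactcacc
Orm2: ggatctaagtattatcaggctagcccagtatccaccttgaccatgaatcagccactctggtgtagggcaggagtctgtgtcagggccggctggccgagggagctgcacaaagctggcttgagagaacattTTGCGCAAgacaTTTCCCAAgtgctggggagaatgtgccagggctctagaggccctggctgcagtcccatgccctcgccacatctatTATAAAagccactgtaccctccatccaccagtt
Lcn2: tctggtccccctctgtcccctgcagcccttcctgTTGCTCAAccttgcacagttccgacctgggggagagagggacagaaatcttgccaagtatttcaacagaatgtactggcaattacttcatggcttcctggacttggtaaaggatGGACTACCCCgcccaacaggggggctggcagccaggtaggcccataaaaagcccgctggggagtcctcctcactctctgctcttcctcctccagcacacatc
Hamp: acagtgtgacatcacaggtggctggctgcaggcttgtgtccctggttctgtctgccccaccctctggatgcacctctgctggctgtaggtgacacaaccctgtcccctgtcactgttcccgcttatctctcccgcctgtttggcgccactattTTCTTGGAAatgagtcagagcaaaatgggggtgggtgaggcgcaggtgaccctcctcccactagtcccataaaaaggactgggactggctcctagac
The Saa1 and Saa2 stretches were identical at 94.8% of 251 aligned positions, in genes that are transcribed away from each other, while all other pairs among the 8 genes had at most 53.2%. Cp has 2 annotated starts, so the 8 genes gave 9 stretches. The C/EBP motif was present in 7 of the 8 genes and in 8 of their 9 stretches, against 36.8% of 32851 promoter stretches of the same length. The exception was Hamp, which was the only one of the 8 with the STAT motif, found in 7.02% of all stretches. The NF-kB motif was present in 5 of the 8 and in 45.8% of all, and the core promoter box in 2 (Orm2 and Cp) and in 7.59% of all. Saa1 had a C/EBP match from position −86 to −79, directly followed by an NF-kB match from −78 to −69 (positions are counted back from the start), and the 2 run together in the capitals above. Saa2 had the NF-kB match without the adjoining C/EBP match, and Saa3 had 4 C/EBP matches and no NF-kB match. Such matches describe the letters only.

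Ccr2, the targeted gene, was lower in the Ccr2KO array of each day: −5.07, −1.51 and −3.64 in Ccr2KO cells, against 0.09, 1.38 and −1.70 in WT cells (untreated, day 28, day 40). Here and below a level is the log2 signal minus the 75th percentile of its array, so that 0 is the array's own 75th percentile, and levels of different probes are not comparable with each other. Whether the Ccr2 probe reads the altered stretch of the gene was not tested, since its position is not stated in these files. Ptprc, the CD45 gene, was detected well above background on all 6 arrays, at 0.45, 2.14 and −0.61 in Ccr2KO cells and 1.54, 2.62 and 0.29 in WT cells in the same order. Between 58.2 and 64.4% of probes were well above background per array and no spot was saturated. All 6 arrays shared 1 slide, with both untreated arrays and the Ccr2KO day 28 array in row 1 and the other silica arrays in row 2. In WT cells row and silica therefore cannot be told apart, and at day 28 row and genotype cannot.

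All 10 acute phase genes rose after silica, with Hamp above background at day 40 only. With days 28 and 40 averaged over both genotypes and set against untreated, the increases lay between 1.49 ± 0.13 (Hp) and 7.10 ± 0.54 (Saa3) on the log2 scale (difference ± SE, limma over 16440 genes, 4 silica and 2 untreated arrays). Of all genes tested, 19.8% were called in either direction and 10.5% were called higher at an adjusted p below 0.05. The median difference was 4.34 over the 10 genes (4.34 also with Saa4 and Hamp at their bounds) and −0.01 over all genes tested. On each of the 4 silica arrays 9 of the 10 genes, all but Hamp, stood at least 2-fold above the untreated array of the same genotype, which 3.38% of all genes did. Saa4 and Hamp entered the tests only through their silica arrays, since neither was well above background on an untreated array. In a bulk sample a change in the share of a cell type and a change in RNA per cell cannot be told apart. Of 11 neutrophil markers 8 also rose after silica, and their part in these increases was not tested.

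**Figure D1:**
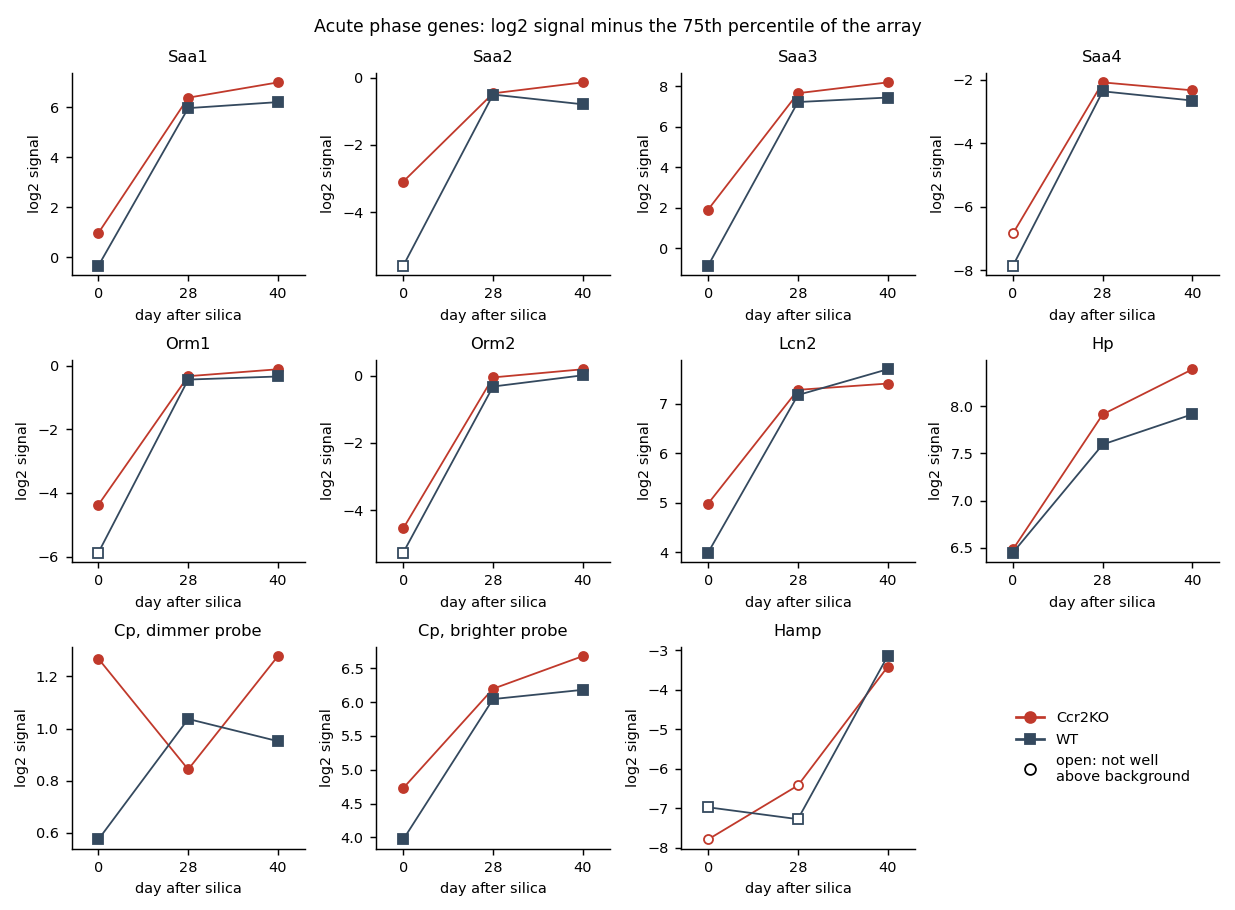
Level of each probe (log2 signal minus the 75th percentile of the array) against the day after silica, day 0 being untreated, with 1 array per genotype and day. Open symbols are arrays on which the probe was not well above background. Every panel except the dimmer Cp probe and Hamp climbs between untreated and day 28 and changes less between day 28 and day 40, while Hamp leaves the background only at day 40.

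These tests rest on what a model of day plus genotype left unexplained, with 2 residual degrees of freedom and no replicate arrays. With the slide row as a block, or without either day 28 array, no gene of the 16440 was called (1 residual degree of freedom each). The silica differences stayed positive for all 10 genes with the row as a block, from 1.53 for Hp to 6.11 for Saa3, and 9 of the 10 had an unadjusted p below 0.05, as did 2472 of all genes. Within row 1 the single comparison of Ccr2KO day 28 with Ccr2KO untreated gave 5.75 for Saa3, 5.41 for Saa1 and 1.43 for Hp.

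Among the serum amyloid genes, Saa3 had the largest increase. Saa3 read 1.92, 7.67 and 8.20 in Ccr2KO cells and −0.85, 7.23 and 7.45 in WT cells (untreated, day 28, day 40). All 4 silica arrays were above both untreated arrays by a wide gap, and the untreated levels of the genotypes were farther apart than the silica levels. Its silica difference was 7.10 ± 0.54 (limma adjusted p = 0.0086), a 137-fold ratio between the geometric means of the scaled signals, and the 4 silica arrays stood 5.75 (Ccr2KO day 28), 6.28 (Ccr2KO day 40), 8.08 (WT day 28) and 8.30 (WT day 40) above their own untreated array.

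Saa1 followed the same order of arrays. It read 0.97, 6.38 and 6.99 in Ccr2KO cells and −0.34, 5.96 and 6.20 in WT cells. The silica arrays lay far above both untreated arrays, and the Ccr2KO array was the higher one on each day. Saa1 rose by 6.07 ± 0.21 (limma adjusted p = 0.00654), or 67.2-fold.

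Saa2, whose coding sequence is close to that of Saa1, read −3.09, −0.46 and −0.14 in Ccr2KO cells and −5.60, −0.50 and −0.79 in WT cells, the untreated WT array not being well above background. The Ccr2KO silica array was slightly above the WT silica array on each day, and the untreated arrays of the genotypes were much farther apart. Its difference was 3.87 ± 0.55 (limma adjusted p = 0.0202). In WT cells alone Saa2 was at least 34.2-fold higher at day 28 and at least 28.0-fold higher at day 40 than untreated. The rule behind "at least" and its limit are given with Saa4 below. Probe sequences were not used here, so signal that the Saa1 and Saa2 probes may share was not tested.

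Saa4 read −6.84, −2.09 and −2.34 in Ccr2KO cells and −7.85, −2.37 and −2.66 in WT cells, with neither untreated array well above background. It rose by 4.98 ± 0.20 (limma adjusted p = 0.00654). This was at least 29.8-fold with untreated arrays set at the lowest signal of any probe well above background, where their own was lower. That signal (−7.68 on the WT untreated array) is not a detection limit for every probe. Orm2 was not well above background on that array at −5.26. Ratios given as "at least" therefore hold under this rule only. With normexp background correction the Saa4 difference was 1.99. Saa4, the form called constitutive in plasma, thus had its measured levels on the silica arrays only, and it was the one serum amyloid gene with a lower level at day 40 than at day 28 in both genotypes.

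The orosomucoid genes gave nearly the same picture as each other. Orm1 read −4.37, −0.33 and −0.11 in Ccr2KO cells and −5.87, −0.44 and −0.34 in WT cells, and rose by 4.81 ± 0.34 (limma adjusted p = 0.00792). Orm2 read −4.54, −0.05 and 0.20 in Ccr2KO cells and −5.26, −0.32 and 0.02 in WT cells, and rose by 4.87 ± 0.15 (limma adjusted p = 0.00654). For both genes the WT untreated array was not well above background, and the 4 silica arrays lay close together, far above the untreated ones. In WT cells Orm1 was at least 43.2-fold and Orm2 at least 30.8-fold higher at day 28 than untreated. Orm3, the third gene of this cluster, rose by 2.52 ± 0.21 (limma adjusted p = 0.00903). Signal that the probes of Orm1, Orm2 and Orm3 may share was not tested.

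Lcn2 read 4.98, 7.28 and 7.41 in Ccr2KO cells and 3.99, 7.17 and 7.70 in WT cells. It was well above background on all 6 arrays and its silica arrays did not overlap the untreated arrays. Lcn2 rose by 2.90 ± 0.29, or 7.47-fold (limma adjusted p = 0.0115), and the increase over the own untreated array was 2.30 and 2.42 in Ccr2KO cells and 3.18 and 3.70 in WT cells (day 28, day 40).

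Haptoglobin and ceruloplasmin had the smallest increases of the 10 genes. Hp read 6.49, 7.91 and 8.39 in Ccr2KO cells and 6.45, 7.60 and 7.92 in WT cells. The untreated level in Ccr2KO cells was 0.03 above that in WT cells, and the order untreated, day 28, day 40 held in both genotypes. Hp rose by 1.49 ± 0.13, or 2.80-fold (limma adjusted p = 0.00953).

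The brighter Cp probe read 4.73, 6.20 and 6.68 in Ccr2KO cells and 3.97, 6.05 and 6.18 in WT cells, and rose by 1.93 ± 0.16, or 3.80-fold (limma adjusted p = 0.00901). The dimmer Cp probe, which the array assigns to another RefSeq transcript of the gene, read 1.27, 0.84 and 1.28 in Ccr2KO cells and 0.58, 1.04 and 0.95 in WT cells. Its silica arrays overlapped its untreated arrays, and its difference was 0.11 ± 0.22 (limma adjusted p = 0.765 over 36492 probes fitted one by one, against 0.0226 for the brighter probe in the same fit, which called 5.12% of all probes higher). Both Cp probes were well above background on all 6 arrays, and the 2 probes differed in their calls.

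Hamp differed from the other genes in its timing. It read −7.79, −6.43 and −3.42 in Ccr2KO cells and −6.98, −7.28 and −3.15 in WT cells, and only the day 40 arrays were well above background. Day 40 was at least 17.0-fold above untreated (4.10 ± 0.43, limma adjusted p = 0.0159) and at least 11.9-fold above day 28 (3.57 ± 0.43, limma adjusted p = 0.0389), while day 28 minus untreated gave 0.53 ± 0.43 (limma adjusted p = 0.428) between arrays that were all at background. Its averaged silica difference of 2.32 ± 0.37 (limma adjusted p = 0.0251) averages 2 day 40 arrays above background and 2 day 28 arrays at background. Without a filter on dim probes the averaged silica call was lost (limma adjusted p = 0.0506), and with normexp background correction the 2 differences were 1.21 and 0.74. The averaged call held in 6 of the 13 alternatives that tested Hamp, against 10 of 13 each for Saa2, Saa4, Orm1 and Orm2. Hamp2, a second hepcidin gene of mice, gave −0.29 ± 0.23 after silica (limma adjusted p = 0.404).

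**Figure D2:**
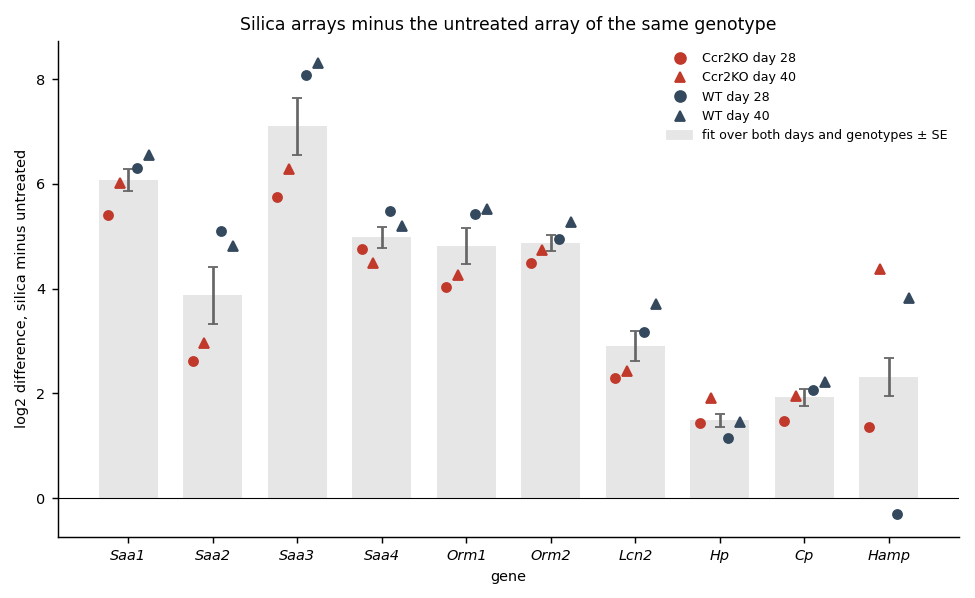
Log2 difference of each silica array from the untreated array of the same genotype, for the brightest probe of each gene. Bars are the fitted silica difference with its standard error. The lowest point of the other 9 genes is 1.14 (Hp, WT day 28), while Hamp has day 28 points of 1.37 in Ccr2KO cells and −0.30 in WT cells, between arrays at background.

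The silica days were also compared one by one. At day 28, 9 of the 10 genes were called higher than untreated, where 9.17% of all genes were called higher and 17.2% in either direction. At day 40 all 10 were called higher, where 8.5% of all genes were called higher and 15.2% in either direction. These counts include Saa4 on both days and Hamp at day 40. Both genes entered the tests only through silica arrays, which favours such calls. Saa2 lost both of its calls with each probe fitted by itself (adjusted p = 0.0545 at day 28 and 0.0541 at day 40, limma). Between day 40 and day 28, Hamp alone was called (0.201% of all genes were called higher and 2.73% in either direction). Hamp entered this test only through its 2 day 40 arrays, and the call was lost without the filter (adjusted p = 0.0864) and with each probe fitted by itself (adjusted p = 0.0745, limma). The other differences between day 40 and day 28 lay between −0.27 ± 0.23 (Saa4) and 0.43 ± 0.24 (Saa1), with limma adjusted p from 0.318 (Hp) to 0.99 (Saa2). The median day 40 minus day 28 difference was 0.32 over the 10 genes and 0.10 over all genes. Hp, Cp, Saa1, Saa3, Orm1, Orm2 and Lcn2 read higher at day 40 than at day 28 in both genotypes, and Saa2 only on the Ccr2KO arrays. These levels depend on the scaling, since the 75th percentile was lower at day 40 (878 against 1159 in WT cells, 793 against 975 in Ccr2KO cells). Before scaling, Orm1 and Orm2 signals were lower at day 40 than at day 28 in both genotypes. Unscaled signals of Saa1, Saa3, Hp and Cp were lower at day 40 in WT cells only, and that of Lcn2 in Ccr2KO cells only. The averaged Cp and Lcn2 differences were −0.040 and −0.026 in the authors' unscaled table, which did not test all 10 genes.

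Between genotypes, most of the 10 genes read higher in Ccr2KO cells. The gap was widest in untreated mice for Saa1, Saa3, Lcn2 and Cp and, as a bound, for Saa2, Orm1 and Orm2. For Hp it was 0.03 untreated, 0.32 at day 28 and 0.48 at day 40. Over the 3 days the Ccr2KO minus WT difference was positive for 9 of 10 genes, with a median of 0.50 (arrays at background included) against 0.03 over all genes tested, and none was called (limma, 0% of all genes called; 4 of the 10 and 1526 of all genes had an unadjusted p below 0.05). The largest differences were 1.32 ± 0.51 for Saa3 (adjusted p = 0.55), 1.07 ± 0.52 for Saa2 (adjusted p = 0.601) and 0.84 ± 0.20 for Saa1 (adjusted p = 0.45), each from limma with 3 arrays per genotype. Without either untreated array the Saa3 difference was 0.59 and the Saa2 difference 0.34. Hamp gave −0.08 ± 0.35 (limma adjusted p = 0.96).

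In untreated mice the Ccr2KO array was at least 2-fold above the WT array for 4 of the 8 genes that were well above background on at least 1 untreated array, and 1.95% of 16138 such genes reached this. Saa3 was 6.82-fold higher in untreated Ccr2KO cells, Saa2 at least 5.68-fold, Orm1 at least 2.83-fold and Saa1 2.48-fold. The Orm1 ratio sets the Ccr2KO level (−4.37) against the probe's own signal on the WT array (−5.87). On that WT array Orm2 was not well above background at −5.26, so Orm1 is among the 4 by this rule only. Saa4 and Hamp were not well above background in either untreated genotype and give no ratio. Lcn2 was 1.99-fold higher and Cp 1.69-fold higher, while Hp was nearly equal at 1.02-fold. At day 28 and at day 40 none of the 10 genes reached 2-fold, against 1.24% and 3.31% of all genes. Over Saa1, Saa3, Lcn2, Hp and Cp, the 5 genes well above background on all 6 arrays, the median difference was 0.99 untreated, 0.32 at day 28 and 0.50 at day 40, against 0.05, −0.01 and 0.04 over all genes. These are single arrays, so the day by day differences have no test. Neutrophil markers averaged 1.20 in untreated Ccr2KO cells and 0.60 in untreated WT cells, and pan-leukocyte markers 1.47 in untreated Ccr2KO cells and 2.48 in untreated WT cells, and their part in these differences was not tested.

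**Figure D3:**
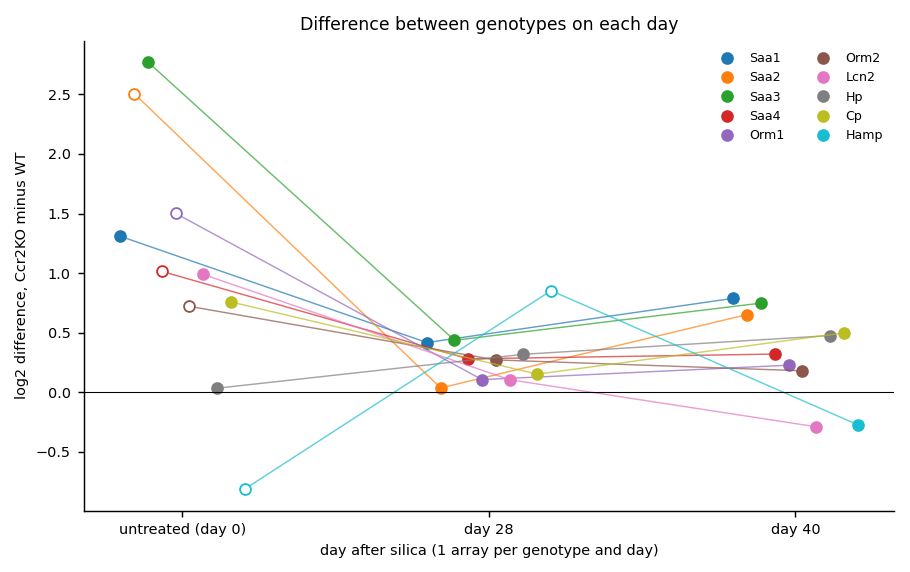
Log2 difference of the Ccr2KO array from the WT array on each day for the 10 genes, with 1 array per genotype and day. Open symbols have at least 1 of the 2 arrays not well above background. The untreated differences spread from −0.81 (Hamp, at background) to 2.77 (Saa3), and those at day 28 and day 40 lie between −0.29 and 0.85.

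The increase after silica was smaller in Ccr2KO cells than in WT cells for 4 of the 5 genes above background on all 6 arrays, all but Hp. The other 5 genes had an untreated array at background in WT cells (Saa2, Orm1, Orm2) or in both genotypes (Saa4, Hamp). The mean of both silica days exceeded the untreated array of the same genotype by 6.01 in Ccr2KO cells and by 8.19 in WT cells for Saa3. For Saa2 it did so by 2.79 in Ccr2KO cells and by at least 4.95 in WT cells, and for Saa1 by 5.72 in Ccr2KO cells and by 6.42 in WT cells. The difference of the 2 responses was −2.18 ± 0.42 for Saa3, −2.16 ± 0.34 for Saa2 and −1.33 ± 0.26 for Orm1, each with an unadjusted p below 0.05 and a limma adjusted p of 0.9998, those of Saa2 and Orm1 resting on a WT untreated array at background. None of the 10 genes and 0% of all genes were called, with 618 of all genes at an unadjusted p below 0.05. Each of these values turns on 1 untreated array per genotype, and without either of these arrays the difference cannot be estimated.

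The genes that share the acute phase pathway moved less uniformly. The list counts for silica here and below stand beside 10.5% of all genes called higher and 19.8% called in either direction. Of 24 other positive acute phase genes, 21 were measured, of which 12 rose after silica, none fell and 9 did not pass (median 0.91). The largest increases were in Il1rn, the interleukin 1 receptor antagonist (3.52 ± 0.28, adjusted p = 0.00893, above background on 5 of 6 arrays), Ptx3, a long pentraxin (2.75 ± 0.10, adjusted p = 0.00654), Orm3, given above, and Steap4, a metalloreductase (2.03 ± 0.36, adjusted p = 0.0307), all from limma. The fibrinogen gene Fga (0.01 ± 0.53), the metallothionein genes Mt1 (0.05 ± 0.34) and Mt2 (0.32 ± 0.36) and haemopexin Hpx (0.91 ± 0.61) did not pass. Of 7 measured negative acute phase genes, 2 fell, 2 rose and 3 did not pass. Albumin Alb fell at least 4.86-fold (limma adjusted p = 0.0332). It was well above background on its 2 untreated arrays only and entered the tests only through them, which favours a fall. The retinol carrier Rbp4 (−0.95 ± 0.16) also fell, and fetuin Ahsg (1.67 ± 0.15) and transferrin Trf (1.02 ± 0.13) rose.

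Among the cytokines that induce these genes, 4 of 13 rose and 9 did not pass. Il17a (2.69 ± 0.12), Osm, which encodes oncostatin M (1.79 ± 0.30), Lif (1.35 ± 0.20) and Il1b (1.26 ± 0.10) rose. These averages cover unlike days. At day 28 Il17a, Osm, Il1b and Tnf were called higher than untreated (Il1b by 2.62 ± 0.11), at day 40 Il17a and Lif, and Il17a and Il1b were lower at day 40 than at day 28. Il1b at day 40 read 2.80 in Ccr2KO cells and 2.98 in WT cells, slightly below its untreated 2.84 and 3.12 in the same order. Il6 read 6.46, 4.16 and 5.98 in Ccr2KO cells and 4.28, 5.05 and 5.61 in WT cells, and gave −0.17 ± 0.66 (limma adjusted p = 0.867). Its highest array was the untreated Ccr2KO array, and its silica and untreated arrays overlapped. Of 11 receptors for these cytokines, 3 rose (Il1r1 0.78 ± 0.09, Osmr 0.77 ± 0.14, Il17ra 0.59 ± 0.12), Lifr fell (−0.95 ± 0.21) and 7 did not pass.

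Of 18 measured signalling and transcription factor genes, 3 rose, 1 fell and 14 did not pass, where 19.8% of all genes were called in either direction. Hnf4a, a liver and gut transcription factor, gave the largest difference (3.06 ± 0.56) with an untreated WT array not above background. The NF-kB subunit genes Nfkb2 (0.90 ± 0.12) and Relb (0.87 ± 0.13) rose and Cebpa (−0.66 ± 0.11) fell. Stat3 (0.31 ± 0.15), its feedback inhibitor Socs3 (−0.08 ± 0.16), Cebpb (0.30 ± 0.16) and Cebpd (−0.11 ± 0.23) did not pass.

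Among 10 measured receptors and binding partners of the acute phase proteins, Mmp9, whose protease lipocalin 2 binds, rose (1.40 ± 0.19), and the scavenger receptor Cd36 (−0.79 ± 0.12), the endocytic receptor Lrp2 (−0.72 ± 0.16) and the lipocalin 2 receptor Slc22a17 (−0.49 ± 0.10) fell. By day, 4 rose and 2 fell at day 28, none was called at day 40, and 3 were lower at day 40 than at day 28, with Mmp9 at −2.29 in Ccr2KO cells and −1.93 in WT cells at day 40 against −2.33 and −2.51 untreated. Of 12 measured iron handling genes, 3 rose (Ltf, lactoferrin, 2.29 ± 0.14, Tfr2 1.32 ± 0.21 and Hmox1 0.77 ± 0.12) and 2 fell. The first of these was Bmp6 (−1.64 ± 0.17), a ligand that raises hepcidin transcription in the liver, and the other was the transferrin receptor Tfrc (−0.70 ± 0.15). Ferroportin, Slc40a1, gave 0.98 ± 0.27 (limma adjusted p = 0.0738). No gene of these 7 lists was called between Ccr2KO and WT cells.

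**Figure D4:**
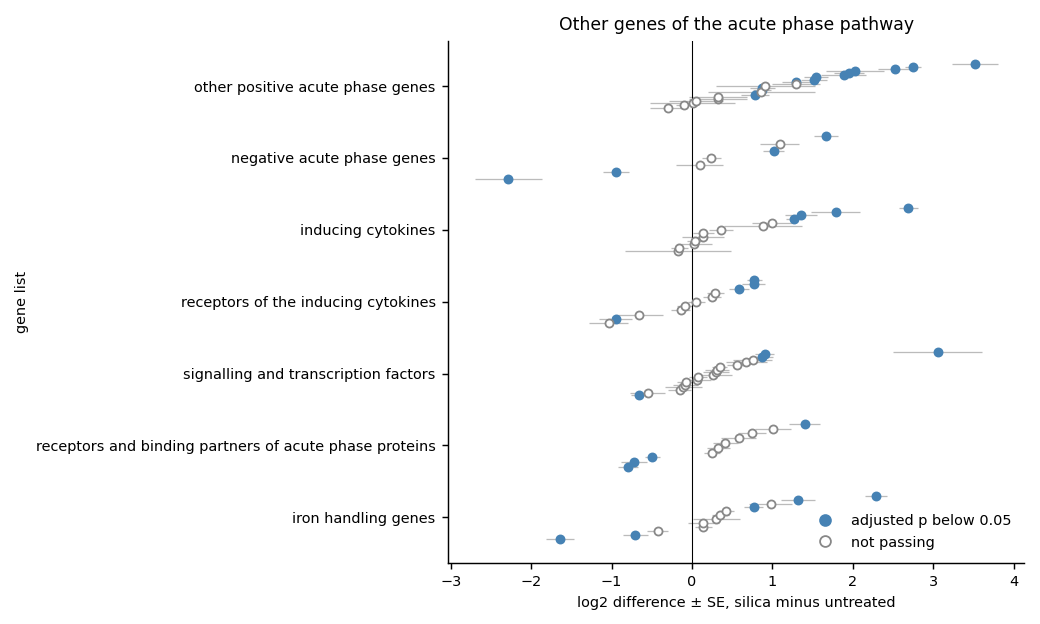
Log2 silica difference with its standard error for each measured gene of 7 pathway lists, filled where the limma adjusted p is below 0.05. Calls among the other positive acute phase genes are all on the right of 0, while the other lists have calls on both sides except the inducing cytokines.

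Marker lists of other cell types were read beside the 10 genes. The mean level of the 10 acute phase genes was −0.75, 2.61 and 3.19 in Ccr2KO cells and −1.83, 2.31 and 2.85 in WT cells, arrays at background included. Markers of neutrophils, cells that store lipocalin 2 and haptoglobin, averaged 1.20, 3.77 and 2.28 in Ccr2KO cells and 0.60, 2.86 and 1.48 in WT cells, and 8 of 11 rose after silica (Mpo 3.30 ± 0.17, Ngp 3.25 ± 0.12, Mmp8 3.04 ± 0.22, Camp 2.57 ± 0.34). By day, 9 were called higher at day 28 and 4 at day 40 than untreated, and 5 were lower at day 40 than at day 28. Their mean peaked at day 28 in both genotypes and was higher in Ccr2KO cells on each day, although Retnlg was lower in Ccr2KO cells on each day and Ltf was highest at day 40. Their part in the differences of the acute phase genes was not tested. Pan-leukocyte markers averaged 1.47, 3.33 and 0.995 in Ccr2KO cells and 2.48, 3.74 and 1.46 in WT cells, with 3 of 12 rising after silica (Cd53 0.79 ± 0.12, Lcp1 0.70 ± 0.12, Cd52 0.68 ± 0.14). By day, 11 of the 12 were called higher at day 28, 2 (Ptprc and Coro1a) were called lower at day 40, and all 12 were lower at day 40 than at day 28. At day 40 the pan-leukocyte mean was below its untreated value in each genotype. The acute phase mean was highest on that day, with Hamp 3.01 (Ccr2KO) and 4.13 (WT) above its day 28 arrays, which were at background. None of the other 9 acute phase genes was called between day 40 and day 28.

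Hepatocyte markers averaged −4.38, −4.60 and −3.89 in Ccr2KO cells and −4.51, −4.39 and −4.08 in WT cells. Of these 10 markers Ttr, Cps1, Fgb and Apoh were not well above background on any array, Alb was so only on the untreated arrays, and Serpina1c (2.72 ± 0.28) and Ahsg rose. Adipocyte markers averaged −4.12, −3.44 and −2.58 in Ccr2KO cells and −3.34, −3.29 and −3.91 in WT cells, with Fabp4 (2.03 ± 0.23) rising and Plin4 (−0.83 ± 0.15) falling. Adipoq rose at least 4.43-fold (limma adjusted p = 0.0316). It was above background on 3 of 4 silica arrays and neither untreated array, so it entered the tests only through silica arrays, which favours a rise. Of 6 fibroblast markers 4 rose (Col3a1 1.72 ± 0.16, Col1a1 1.58 ± 0.16, Col1a2 1.31 ± 0.14, Lum 1.24 ± 0.25) and Pdgfra fell (−0.76 ± 0.17). Of 7 alveolar type 2 markers 4 fell (Slc34a2 −0.94 ± 0.13, Abca3 −0.80 ± 0.10, Sftpb −0.76 ± 0.10, Lamp3 −0.65 ± 0.12). Alveolar type 1 markers fell in 4 of 5 (Hopx −2.14 ± 0.25, Akap5 −2.02 ± 0.19, Ager −1.43 ± 0.25, Aqp5 −1.097 ± 0.15). Mesothelial markers fell in 3 of 4 (Upk3b −1.36 ± 0.18, Lrrn4 −1.25 ± 0.11, Wt1 −0.70 ± 0.10), and endothelial markers in 2 of 5 (Cldn5 −0.79 ± 0.16, Kdr −0.56 ± 0.12). Of 3 club cell markers Scgb3a1 rose (0.95 ± 0.21). None of 8 macrophage markers was called for the averaged silica difference, while Csf1r was lower at day 40 than untreated (−1.32 ± 0.20) and than at day 28 (−1.71 ± 0.20). The part of these lists in the results was not tested.

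**Figure D5:**
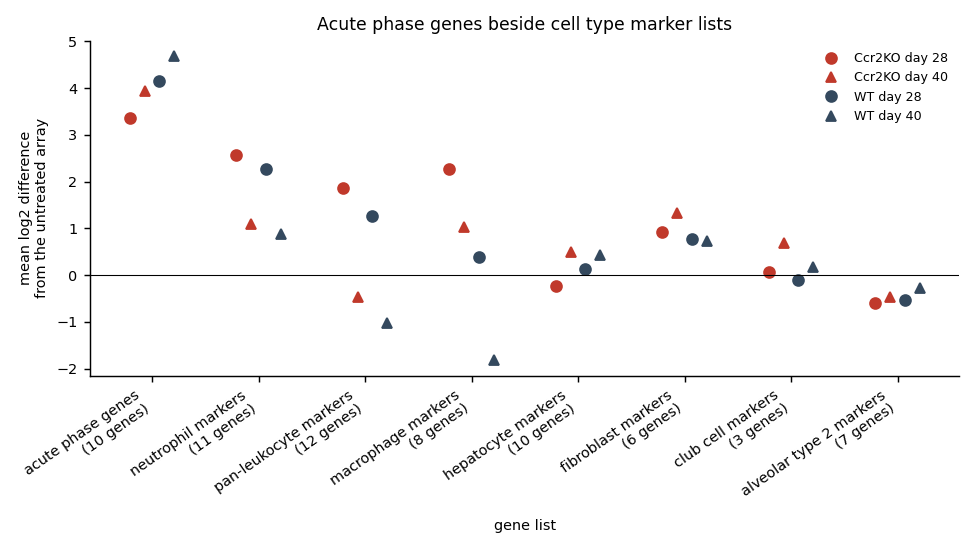
Mean log2 difference of each silica array from the untreated array of its genotype, for the 10 acute phase genes and 7 lists of cell type markers (number of genes below each name). The acute phase mean lies between 3.36 and 4.69 on all 4 arrays, while the neutrophil mean is 2.57 and 2.26 at day 28 and 1.08 and 0.88 at day 40 (Ccr2KO, WT). Arrays at background are included. Of the 10 acute phase genes, 8 were well above background on the Ccr2KO untreated array and 5 on the WT untreated array.

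The 10 genes fell into closer and more distant patterns when each was centred on its own mean over the 6 arrays. The values were not scaled, so genes that change little give small distances. Hp and Cp had the smallest ranges of the 10 over the arrays (1.94 and 2.71), while Saa3 had 9.05. Among the 5 genes above background on all 6 arrays the closest pair was Hp and Cp, with a root mean square difference of 0.30 log2 units over the arrays, followed by Lcn2 and Cp (0.52). Pairs among Orm1, Orm2 and Saa4 gave 0.24 to 0.25, with 1 or 2 untreated arrays of each gene at background. The genes outside the list that lay nearest to Saa3, among 14930 genes above background on all 6 arrays, were Chl1, a neural adhesion molecule (0.60), Dmbt1, a mucosal scavenger receptor (0.83), Grem1, a BMP antagonist (1.095), Thbs4 (1.23) and Syt13 (1.28). Nearest to Lcn2 were Fgl1, Slc26a4, Pimreg, Fxyd4 and Fscn1 (0.17 to 0.22), and nearest to Hp were Stab2, Npas4, Madcam1, Art5 and Slc5a9 (0.08 to 0.09). All these distances share the same 6 arrays and are descriptions.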

How the data were processed

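Per the labels' protocols, RNA of CD45-negative lung cells (magnetic sorting after digestion and Percoll) was pooled from 3 mice per group, labelled with Cy3 and hybridised to one-colour arrays. Per the file headers, the authors extracted background-subtracted, detrended intensity with Feature Extraction 11.0.1.1 (protocol GE1_1100_Jul11, design 028005, scanner G2600D, mm9 annotation). The deposited value table holds the log2 of that intensity without scaling for 30574 probes (largest difference 5e-09), and the submitters' processing notes name R 2.15.1.

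From the deposited intensity of 59305 non-control spots per array, outlier spots (109 to 195) were dropped, repeated spots averaged, and log2 taken and lowered by the 75th percentile of the array. Array signals at that percentile were 793 to 1179, and the number of arrays limits precision. Probes were named through RefSeq identifiers (27509 with 1 symbol), probes needed a signal well above background on 2 or more of the 6 arrays, and the brightest such probe stood for its gene. limma 3.58.1 (R 4.3.3, the package data.table at version 1.17.8) fitted day plus genotype (2 residual degrees of freedom, prior 2.22) and, for the difference of responses, genotype by silica (prior 1.87), with Benjamini-Hochberg adjustment over 16440 genes at 0.05. The fits were tested on simulated data. A bound ("at least") sets a side that is not well above background at the higher of its own signal and the lowest signal well above background on that array. That lowest signal is taken over all probes. A given probe can be not well above background at a higher signal, so the true ratio can lie below a bound. Promoter letters are RefSeq's (GRCm38.p6) and were aligned globally with Biopython 1.88 in Python 3.11.15, and figures were drawn with matplotlib 3.10.9.

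All 10 genes with every probe were named, with the 4 largest called differences of each other list and the 5 nearest patterns to Saa3, Lcn2 and Hp. The members and lists were chosen with earlier results of these data known. Alternatives were normexp background correction (offset 50, on the median spot signal, the files giving no mean signal), quantile normalization, the authors' table, no filter, all 6 arrays above background, the mean of a gene's probes, each probe by itself, a robust prior with an intensity trend, a block for the slide row, and leaving out each array.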

Additional observations from a re-analysis of the deposited data

How the results depend on the processing

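The number of the 10 genes called after silica was 5 in the authors' table and 5 among genes well above background on all 6 arrays, each of which tested only 5 of the 10, for silica, day 28 and day 40 alike, and 0 with a block for the slide row (1 residual degree of freedom, 0 genes called in all). Leaving out each array gave 0 to 10 for silica, 0 to 9 for day 28, 0 to 10 for day 40 (0 without Ccr2KO day 28, WT day 28 or, for day 40 only, Ccr2KO day 40, and 6 without WT day 40) and 0 to 1 for day 40 against day 28. That single call, Hamp, was lost (0) with every probe by itself, without a filter and with the row as a block. The authors' table and the genes above background on all 6 arrays also gave 0, but Hamp was not among the 5 genes tested there. With every probe by itself, Saa2 also lost its day 28 and day 40 calls (adjusted p = 0.0545 and 0.0541, limma). The silica difference itself was positive for each of the 10 genes in every alternative that tested the gene. Normexp shrank dim genes, with silica differences of 1.99 for Saa4, 3.05 for Orm1, 3.16 for Orm2 and 0.74 for Hamp, since its offset is added to every signal. The counts between genotypes and for the difference of responses were 0 under every alternative. Signs turned only in comparisons that were not called. The Ccr2KO minus WT difference of Hamp was 0.059 with normexp and, leaving out each array, lay between −0.54 (without Ccr2KO or WT day 28) and 0.29 (without either untreated array), with 0.020 without either day 40 array. That of Lcn2 lay between −0.092 (without either untreated array) and 0.55 (without either day 40 array). Day 28 minus untreated for Hamp lay between −0.17 (without Ccr2KO day 28) and 1.23 (without WT day 28), with −0.0195 without Ccr2KO untreated, and its difference of responses between −0.96 (without WT day 28) and 3.17 (without WT day 40), with −0.40 without Ccr2KO day 40. Day 40 minus day 28 was −0.040 for Cp and −0.026 for Lcn2 in the authors' table, and −0.094 for Lcn2 without WT day 40, up to 0.74 without Ccr2KO day 40. With the row as a block or without Ccr2KO day 28 it was −0.22 for Orm1, −0.75 for Saa2 and −0.28 for Saa3, the highest values, without WT day 28, being 0.54, 0.79 and 1.04, and without WT day 40 −0.13, −0.29 and −0.05. The cause was not tested. The authors' unscaled table moved the median of all genes by −0.19 for silica, −0.25 for day 40 against day 28 and −0.20 between genotypes. The difference of responses could not be estimated without either untreated array. No paired analysis was possible because each group holds 1 array and the labels give no replicate numbers.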

Other observations

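Some genes of the pathway lists stood apart on single arrays, and these were chosen after their values were seen. Hpx, the haem carrier haemopexin, read −2.07, −2.05 and 0.84 in Ccr2KO cells and −2.53, −2.32 and −2.01 in WT cells (untreated, day 28, day 40), so that the Ccr2KO day 40 array alone lay above the 75th percentile of its array. The metallothionein gene Mt1 read 7.60, 6.56 and 7.65 in Ccr2KO cells and 6.18, 6.68 and 6.87 in WT cells, and Mt2 read 7.22, 6.38 and 7.56 in Ccr2KO cells and 5.77, 6.56 and 6.78 in WT cells. In both metallothionein genes the Ccr2KO array was the higher one untreated and at day 40 and the lower one at day 28, and Il6 had that order too. Serpina3n, an acute phase serine protease inhibitor, read 2.89, 4.07 and 4.48 in Ccr2KO cells and 1.57, 3.99 and 3.95 in WT cells, with its widest gap between genotypes in untreated mice. None of these differences between genotypes passed the limma test, and each value is 1 array.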
